A study of Mus musculus with 10 samples.

Results

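The step from 5 to 7 g/kg of ethanol was examined in mouse liver by comparing the 3 arrays titled as 7 g/kg ethanol gavage with the 4 arrays titled as 5 g/kg ethanol gavage, which are 7 of the 10 arrays in the series. All animals were male C57BL/6N mice, and the labels name no altered gene and no other agent. The remaining 3 arrays came from mice gavaged with maltose in an amount isocaloric to the lower ethanol dose. They served to tell a further rise or fall at 7 g/kg from an effect of 5 g/kg that was lost, and nothing matched the calories of 7 g/kg. The labels give no age, no number of mice per array and no time between gavage and collection, so the p-values below measure the spread between arrays.

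Each array paired Cy5-labelled liver RNA with a Cy3-labelled commercial mixed mouse RNA, the same reference throughout. A level below is the log2 ratio of liver over reference signal on 1 array, so a positive level means more signal in the liver than in the reference. Where fewer levels than arrays are given, the spot was marked as an outlier on the other arrays and the fit dropped it. A difference is the 7 g/kg mean minus the 5 g/kg mean on that log2 scale, given with its standard error (SE). Tests are limma's moderated test over 26122 genes, with Benjamini-Hochberg adjustment, and a gene is called different at an adjusted p under 0.05. Per array, liver signal had a median between 121 and 219 units over a local background of 21 to 24 units. Within groups, arrays correlated over genes at r of 0.52 to 0.72. The third 5 g/kg array correlated at 0.52 to 0.53 with its own group. With 7 g/kg arrays 1, 2 and 3 its r was 0.44, 0.58 and 0.55. It shared a slide with 7 g/kg array 2, and the part of the slide in that r was not tested. Of 8 hepatocyte markers tested none was called between the doses by the limma test, against 1.56% of all genes, with a median difference of −0.09. Of 7 pericentral hepatocyte markers 1 was higher and 2 were lower at 7 g/kg (median −0.14). Of 8 periportal markers none was called (median −0.34). In whole liver, fewer cells of a type and less RNA per cell cannot be told apart.

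Ethanol is oxidised in hepatocytes by alcohol dehydrogenase, CYP2E1 and aldehyde dehydrogenase, a process that raises NADH and delivers acetate. Hepatocytes switch between burning and making fatty acids. The nuclear receptor PPAR alpha drives fatty acid oxidation, ketone production and the CYP4A omega-hydroxylases, while the carbohydrate-sensing factor ChREBP and the sterol-regulated SREBP factors drive glycolysis, fatty acid synthesis and cholesterol synthesis. The liver also secretes acute phase proteins on cytokine signals, and it raises chaperones when proteins misfold in the cytosol or in the endoplasmic reticulum (ER).

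Promoter sequences of 8 genes are shown here as examples from the groups described below, the heat shock genes and Khk being among the members whose promoter holds the motif. Each is the stretch of 250 bases before the first-listed RefSeq transcription start in GRCm38.p6, printed in the direction of the gene. Capitals mark matches, on either strand, to a short motif. The first set is the serum amyloid A genes Saa1, Saa2 and Saa3, which rose most at 7 g/kg, with capitals on the C/EBP-type motif TTGCNNAA: Saa1 on the minus strand at chr7:46742981-46743230, Saa2 on the plus strand at chr7:46751583-46751832 and Saa3 on the minus strand at chr7:46715677-46715926.
Saa1: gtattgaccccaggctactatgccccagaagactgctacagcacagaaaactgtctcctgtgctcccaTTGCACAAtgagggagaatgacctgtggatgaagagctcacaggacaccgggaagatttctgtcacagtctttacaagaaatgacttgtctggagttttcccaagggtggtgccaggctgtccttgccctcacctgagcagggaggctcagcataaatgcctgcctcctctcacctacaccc
Saa2: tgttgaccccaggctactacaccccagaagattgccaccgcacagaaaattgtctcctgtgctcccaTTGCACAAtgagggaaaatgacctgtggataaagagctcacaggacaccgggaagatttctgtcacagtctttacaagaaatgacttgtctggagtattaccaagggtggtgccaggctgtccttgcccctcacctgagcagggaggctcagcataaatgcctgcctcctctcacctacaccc
Saa3: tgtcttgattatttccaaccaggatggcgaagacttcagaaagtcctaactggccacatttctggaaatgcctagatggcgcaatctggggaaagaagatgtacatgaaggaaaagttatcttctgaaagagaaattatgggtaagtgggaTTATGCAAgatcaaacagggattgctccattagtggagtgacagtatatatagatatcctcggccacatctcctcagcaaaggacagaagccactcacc

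The motif stood at position −182 in Saa1, −183 in Saa2 and −99 in Saa3, counted back from the start site. It occurred in 7 of the 9 promoters at hand for Lcn2 and the acute phase genes that were higher at 7 g/kg, and in 9.55% of 27025 promoters of the same length. The other matches were in Hpx, Fga, Fgb and Lcn2. The Saa1 and Saa2 stretches were identical at 238 of 251 aligned positions (94.8%), against 52.2% for Saa1 and Saa3. The second set is chaperone genes. Hspb1 lost a rise, Creld2 kept part of one, Hspe1 was lower at 7 g/kg, and Hsp90b1 rose at 5 g/kg with no call between the doses. For the heat shock genes Hspb1 (plus strand, chr5:135887669-135887918) and Hspe1 (plus strand, chr1:55087898-55088147) capitals mark the heat shock element core GAANNTTC. For the ER chaperone genes Creld2 (plus strand, chr15:88819396-88819645) and Hsp90b1 (minus strand, chr10:86705445-86705694) they mark the ER stress element, which is CCAAT, 9 bases of any kind and CCACG.
Hspb1: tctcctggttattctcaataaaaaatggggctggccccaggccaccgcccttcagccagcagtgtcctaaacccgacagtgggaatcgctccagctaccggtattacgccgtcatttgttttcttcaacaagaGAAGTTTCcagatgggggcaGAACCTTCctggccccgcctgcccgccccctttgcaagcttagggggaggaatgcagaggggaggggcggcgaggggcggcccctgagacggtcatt
Hspe1: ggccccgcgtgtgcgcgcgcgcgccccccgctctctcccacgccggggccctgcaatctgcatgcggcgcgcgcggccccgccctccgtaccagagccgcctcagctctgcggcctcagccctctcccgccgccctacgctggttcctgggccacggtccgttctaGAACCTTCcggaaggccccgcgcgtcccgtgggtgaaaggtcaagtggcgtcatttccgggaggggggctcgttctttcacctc
Creld2: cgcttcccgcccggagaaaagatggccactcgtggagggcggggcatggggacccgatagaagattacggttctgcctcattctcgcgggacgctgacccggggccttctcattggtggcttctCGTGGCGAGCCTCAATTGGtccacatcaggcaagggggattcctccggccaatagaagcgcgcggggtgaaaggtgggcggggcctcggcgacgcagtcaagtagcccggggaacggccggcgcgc
Hsp90b1: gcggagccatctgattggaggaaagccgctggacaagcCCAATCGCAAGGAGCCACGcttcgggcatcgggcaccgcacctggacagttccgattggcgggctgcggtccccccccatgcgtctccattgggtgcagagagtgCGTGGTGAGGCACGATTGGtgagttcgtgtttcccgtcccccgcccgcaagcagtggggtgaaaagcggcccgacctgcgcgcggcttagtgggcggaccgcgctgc

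The heat shock core stood at −117 and −97 in Hspb1 and at −84 in Hspe1. It was found in 2 of the 4 promoters at hand for the 6 heat shock genes that were lower at 7 g/kg, and in 6.78% of all promoters. The ER stress element stood at −126 in Creld2 and at −212 and −107 in Hsp90b1. It was found in 6 of the 8 promoters at hand for the 10 ER chaperone and degradation genes that rose at 5 g/kg over control, and in 33 of 27025 promoters overall (0.122%). The other matches were in Dnajc3, Pdia6, Calr and Syvn1. The third kind is Khk (plus strand, chr5:30921309-30921558), the first enzyme of fructose use and a gene that rose at both doses, with the E-box CACGTG in capitals.
Khk: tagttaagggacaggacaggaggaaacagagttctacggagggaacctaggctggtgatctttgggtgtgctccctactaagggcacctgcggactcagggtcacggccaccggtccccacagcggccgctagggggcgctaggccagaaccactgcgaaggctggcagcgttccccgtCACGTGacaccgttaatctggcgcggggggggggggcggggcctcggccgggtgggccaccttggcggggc

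The E-box stood at −71 in Khk. It was found in 3 of the 13 promoters at hand for the sugar and fatty acid synthesis genes that were higher at 7 g/kg (Khk, Elovl5 and Slc25a1) and in 6.05% of all promoters. The direct repeat AGGNCA, 1 base, AGGNCA was in none of the 9 promoters at hand for the fatty acid oxidation genes that were lower at 7 g/kg, and in 0.333% of all promoters. A match describes letters only, and the motifs were chosen with the results known.

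Between the ethanol doses 408 of 26122 genes differed (1.56%), 177 of them higher at 7 g/kg (0.678%) and 231 lower (0.884%). The difference reached 2-fold in 82 genes, 49 higher and 33 lower. It reached 4-fold in 9 genes. The named ones among these were the serum amyloids Saa1, Saa2 and Saa3, Car3, Thrsp and Lcn2, which were higher, and Cyp4a14 and Cyp4a31, which were lower. At an unadjusted p under 0.05 there were 2809 genes. In 407 of the 408 genes the 7 g/kg arrays did not overlap the 5 g/kg arrays, the exception being Hpx. Such separation largely follows from the call itself, and its share over all genes was not counted. With slide as a fixed block 333 genes differed, 290 of them among the 408. In that fit 25 of the 130 called genes named here had no call, namely Fdps, Fgb, Fgg, Apcs, Mt1, Slc39a14, Alas1, Acadvl, Eci1, Acot8, Aldh3a2, Hspd1, Sec61b, Tram1, Gstm2, Ces1e, Aadac, Cyp1a2, Por, Mat1a, C6, Paox, Slco2b1, Ahsa1 and St13.

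The number of calls depended on single arrays. It was 210, 225 and 301 without 7 g/kg arrays 1, 2 and 3, and 247, 228, 418 and 290 without 5 g/kg arrays 1 to 4. With the liver channel alone, without the reference, it was 46, 31 higher and 15 lower, and all 46 were among the 408. Of the 130 called genes named here 27 were called with that channel, and every difference kept its direction. With median centring in place of loess the calls were split 167 higher and 152 lower.

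Set against the maltose control, most of the genes that separated the doses had no call at 5 g/kg. At 5 g/kg 989 genes differed from control (3.79% of those tested). Of the 408 genes, 133 were higher and 177 lower at 7 g/kg without a call at 5 g/kg. Of these, 117 of the 133 and 144 of the 177 differed from control at 7 g/kg by the limma test, and the rest at neither dose. A further 34 genes had risen at 5 g/kg and rose again, with a median difference from control of 1.17 at the lower and 2.06 at the higher dose. Another 30 had fallen at 5 g/kg and fell further, with medians of −0.67 and −1.38. In 24 genes a rise at 5 g/kg was smaller, gone or reversed at 7 g/kg (medians 0.65 and −0.0014). The 7 g/kg mean lay below control in 12 of these, and 3 of the 24 differed from control at 7 g/kg. In 10 genes a fall at 5 g/kg was smaller, gone or reversed (medians −1.09 and −0.10). The 7 g/kg mean lay above control in 4 of these, and none of the 10 differed from control at 7 g/kg by the limma test. The 5 g/kg arrays enter both differences with opposite sign, so the counts of lost effects are a description.

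**Figure D1:**
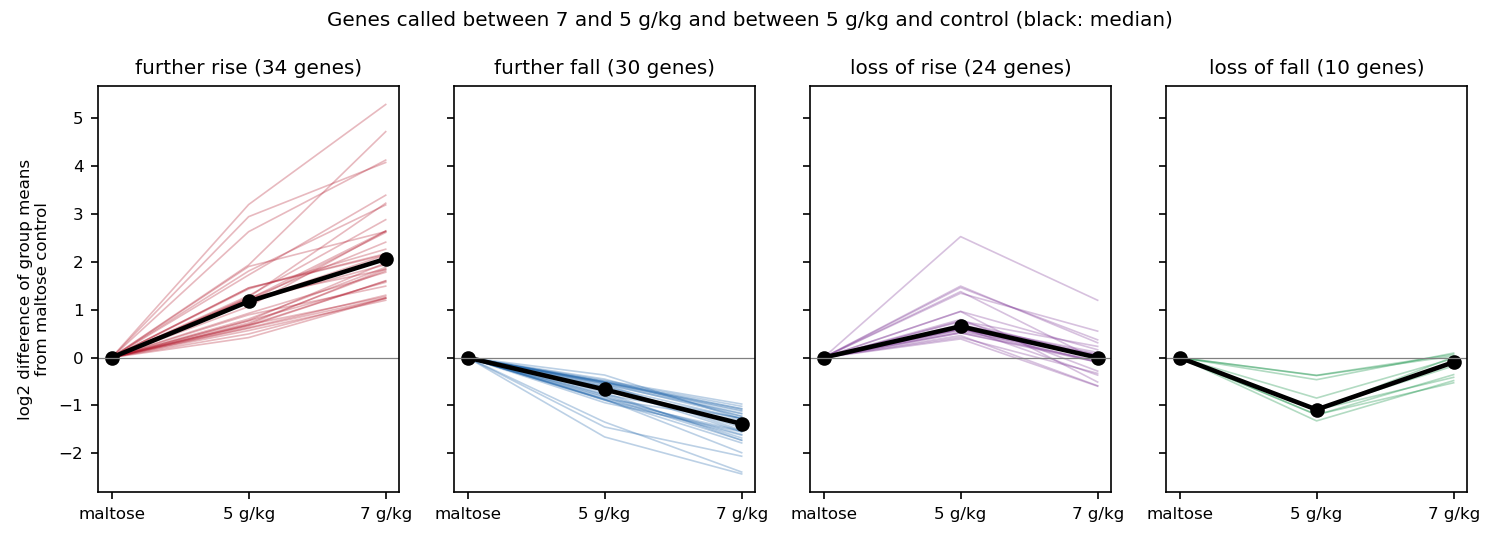
Each thin line is 1 gene called both between 7 and 5 g/kg ethanol and between 5 g/kg and control, and the y axis is its log2 difference of group means from the maltose control. The black line is the median of the 34, 30, 24 and 10 genes of the 4 panels, and in the lost-rise panel it returns to −0.0014 at 7 g/kg.

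The largest single change of the dose step was the fall of the Cyp4a genes, fatty acid omega-hydroxylases that are classical PPAR alpha targets. Cyp4a14 had levels of 1.58, 0.76 and 0.87 in controls, 1.37, 0.82, 0.90 and 0.73 at 5 g/kg, against −4.89, −5.12 and −5.12 at 7 g/kg. The 5 g/kg arrays overlapped the controls, and all 7 g/kg arrays were far below both. The difference was −6.00 (SE 0.19, 63.9-fold lower, adjusted p = 2.61e-10), while 5 g/kg differed from control by −0.12 (adjusted p = 0.841). Cyp4a31 ran from 1.26 to 2.22 in controls, averaged 1.24 ± 0.20 (SD, n = 4) at 5 g/kg, and was −3.01, −2.88 and −3.84 at 7 g/kg. Its difference was −4.49 (SE 0.23, 22.4-fold lower, adjusted p = 1.51e-07), and a second probe gave −4.27 (SE 0.16). Within slides the difference was −6.02 to −5.71 for Cyp4a14 and −5.11 to −3.90 for Cyp4a31, and both passed in each of the 10 fits that left out 1 array and with the liver channel alone.

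A pair of relatives was measured only with the spots kept that the scanner software had marked as outliers, an alternative in which 456 of 26944 genes differed (1.69%). In that fit Cyp4a10 was 1.06, 0.77, 0.43 and 0.72 at 5 g/kg, against −3.52, −3.27 and −4.33 at 7 g/kg, a difference of −4.45 (SE 0.21, adjusted p = 3.27e-08). Cyp4a12a, the male-predominant family member, fell by less, with a difference of −1.41 (SE 0.13, adjusted p = 4.28e-05). Probes of these similar genes may share signal, so the separate sizes are uncertain. Cyp4f14, which adds a hydroxyl group to leukotriene B4 and to long-chain fatty acids, moved the other way, from between −0.96 and −0.42 at 5 g/kg to 0.17, 0.64 and 0.10 at 7 g/kg (difference 1.00, SE 0.16, adjusted p = 0.00436).

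Fatty acid oxidation genes fell with them, by less. Of 15 mitochondrial oxidation genes tested, 7 were lower and none higher at 7 g/kg by the limma test, with a median difference of −0.53 against 0.01 over all genes, and all 15 differences were below 0. Of 14 peroxisomal oxidation genes 5 were lower and none higher, with a median of −0.46. Taking the mean level of the mitochondrial genes, controls lay at 0.51, 0.43 and 0.23, the 5 g/kg arrays between 0.06 and 0.17, and the 7 g/kg arrays at −0.40, −0.38 and −0.30. The doses did not overlap, and the controls lay above both. Separation of list means was not particular to these genes. The interferon response list (0 called) and the lipid droplet list (1 called) also showed it. The number of mitochondrial members called was 4 to 6 when 1 array was left out, and that of peroxisomal members 2 to 4. With the liver channel alone 0 mitochondrial members (median −0.41) and 1 peroxisomal member (median −0.39) were called, against 4 and 2 with the scanner's log ratio. The median of the mitochondrial genes within slides was −0.60 to −0.25, and that of the peroxisomal genes −0.47 to −0.41.

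Among the mitochondrial members, the subunits of the trifunctional protein, which carries out the last steps of long-chain oxidation, both fell. Hadhb was 0.53, 0.44, 0.61 and 0.47 at 5 g/kg, against −0.68, −0.48 and −0.35 at 7 g/kg, a difference of −1.01 (SE 0.11, adjusted p = 2.83e-04). Hadha differed by −0.69 (SE 0.10, adjusted p = 0.0034). Decr1, needed for unsaturated chains, differed by −0.81, Acad11 by −0.73, the carnitine carrier Slc25a20 by −0.64, Eci1 by −0.53 and the very-long-chain dehydrogenase Acadvl by −0.45 (SE 0.10 to 0.16). Acadvl and Eci1 were called in 1 and 4 of the 10 fits without 1 array. Cpt1a, the entry step into mitochondria, had already fallen at 5 g/kg (difference from control −1.17, adjusted p = 4.25e-04) and showed no further call (difference −0.41, 95% interval −0.72 to −0.09, adjusted p = 0.276).

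Of the peroxisomal members, Ech1, an isomerase of unsaturated chains, was 0.25, 0.21, 0.08 and 0.12 at 5 g/kg, against −0.77, −0.87 and −0.93 at 7 g/kg (difference −1.02, SE 0.10, adjusted p = 1.4e-04). Crat, which makes acetylcarnitine, differed by −1.15 (SE 0.21), Hsd17b4 by −0.65, the thiolase Acaa1a by −0.62 and the thioesterase Acot8 by −0.46. Acaa1a had a value on 2 of the 4 arrays at 5 g/kg and was called in 2 of the 10 fits without 1 array, and Acot8 in 1. Acat1, a mitochondrial acetoacetyl-CoA thiolase, differed by −0.55 (SE 0.09, adjusted p = 0.0084).

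Of 20 other PPAR alpha targets tested, 5 were lower and 1 was higher, with a median of −0.11. Vnn1, a pantetheinase, was 0.61, 0.01, 0.02 and 0.19 at 5 g/kg, against −0.96, −1.11 and −1.47 at 7 g/kg (difference −1.39, SE 0.18, adjusted p = 8.82e-04). The cytosolic thioesterase Acot1 had fallen by 0.87 at 5 g/kg and differed by a further −1.12 (SE 0.20, adjusted p = 0.0106). Aldh3a2, which oxidises fatty aldehydes, showed a further fall of the same kind (−0.57, SE 0.12). The member higher at 7 than at 5 g/kg was Fabp1, the liver fatty acid binding protein. It went from between −0.56 and 0.26 at 5 g/kg to 1.24, 1.22 and 0.68 (difference 1.09, SE 0.22, adjusted p = 0.0198). Its controls were 0.79, 0.80 and 0.09. By the limma test neither 5 g/kg (−0.61, adjusted p = 0.166) nor 7 g/kg (0.48, adjusted p = 0.269) differed from control. The dose difference of Fabp1 was called in 6 of the 10 fits without 1 array, and it was 0.57 with the liver channel alone. The receptor itself, Ppara, was lower than control at both doses and differed between them by 0.11 (95% interval −0.13 to 0.35, adjusted p = 0.819). Acot3 fell at 5 g/kg (−2.96 from control). Its probe was well above background on 2 of the 4 arrays at 5 g/kg and on 0 of 3 at 7 g/kg, so a further fall cannot be read from it. Fgf21 (−0.86, adjusted p = 0.172), Pdk4 (−0.24, adjusted p = 0.612) and the lipid droplet genes Cidec (−1.15, adjusted p = 0.177) and Plin2 (0.13, adjusted p = 0.925) were not called. A second Fgf21 probe gave −0.74 and passed in a fit of every probe on its own (adjusted p = 0.0242). Cidec passed with slide as a fixed block (−0.89, adjusted p = 0.0229) and with a replicate block (adjusted p = 0.00401).

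Lipid carriers outside these lists of oxidation genes moved too. Apoa4, an apolipoprotein of triglyceride-rich particles, was 0.25, 0.28 and −0.28 on the 3 arrays with a value at 5 g/kg, against −1.46, −1.92 and −1.32 at 7 g/kg (difference −1.65, SE 0.29, adjusted p = 0.0106). Fabp2, the intestinal-type fatty acid binding protein, fell at both steps, by 0.60 from control at 5 g/kg and by a further 0.86 (SE 0.11, adjusted p = 0.00121). Hsd17b11, a lipid droplet dehydrogenase, differed by −0.91, and Abhd2 and Hsd17b10, a hydrolase and a mitochondrial dehydrogenase, by −1.24 and −1.23 (SE 0.10 to 0.16). Dbi, the acyl-CoA binding protein, rose by 1.20 (SE 0.12, adjusted p = 1.4e-04).

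**Figure D2:**
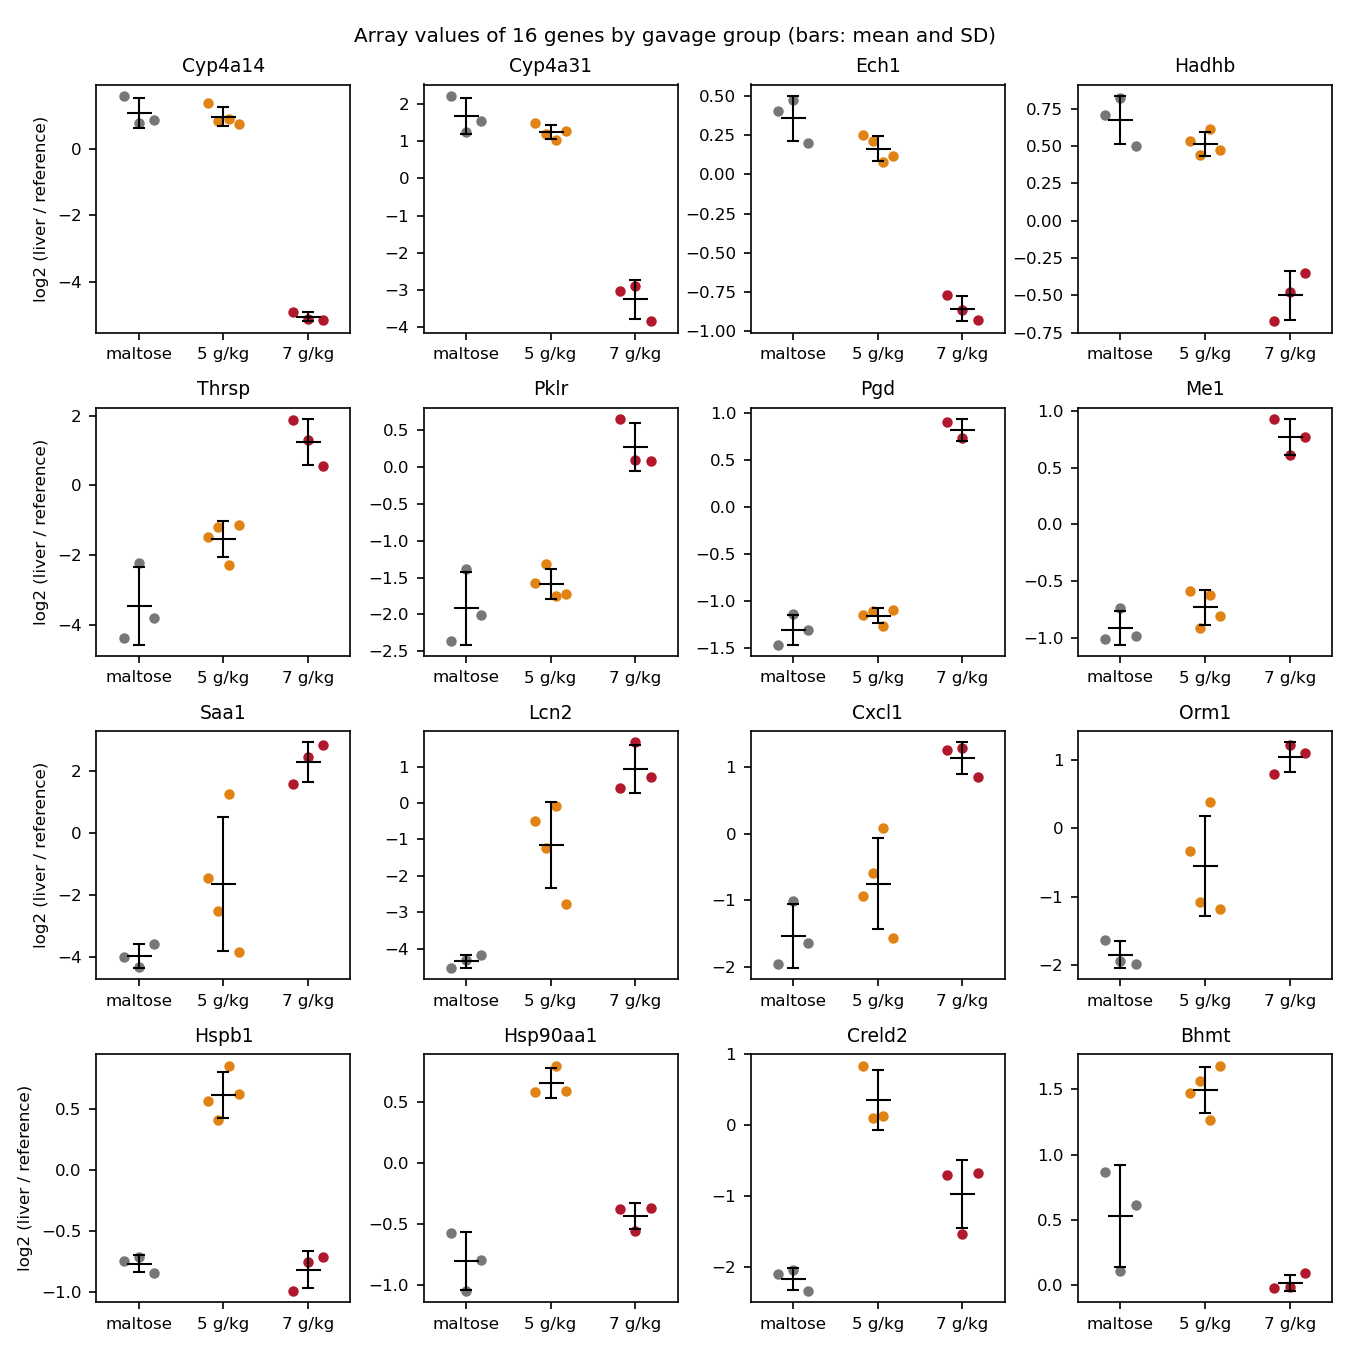
Points are single arrays of maltose control, 5 g/kg and 7 g/kg ethanol, the y axis is the log2 ratio of liver over reference, and bars give the mean and SD of each group for 16 genes. The 7 g/kg arrays of Cyp4a14 lie between −5.12 and −4.89, and Hspb1 at 7 g/kg is back at control levels.

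Many genes that turn sugar into fat rose at 7 g/kg. In the list for glycolysis, ChREBP and the pentose phosphate pathway 8 of 23 genes tested were higher and none lower, with a median difference of 0.24. Of 14 fatty acid synthesis genes 6 were higher and none lower, with a median of 0.48, and all 14 differences were above 0. The mean level of the fatty acid synthesis genes was −0.44, −0.46, −0.59 and −0.43 at 5 g/kg, against 0.55, 0.21 and 0.24 at 7 g/kg. The corresponding glycolysis and pentose phosphate levels were −0.33 to −0.22 and 0.18 to 0.34. Neither list overlapped between the doses. That also held for lists with few or no calls, such as IL-6 and STAT3 signalling (1 called), sulfotransferases and glucuronosyltransferases (1 called) and interferon response (0 called). The share of all lists without overlap was not counted. Without 1 array 8 or 9 sugar genes and 4 to 6 fatty acid synthesis genes were called. The counts were 4 and 3 with the liver channel alone.

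The pentose phosphate branch, which makes NADPH, was led by Pgd, phosphogluconate dehydrogenase. Pgd was −1.15, −1.11, −1.27 and −1.10 at 5 g/kg, beside controls at −1.47 to −1.15, and 0.90 and 0.73 on the 2 arrays with a value at 7 g/kg. The difference was 1.98 (SE 0.12, 3.94-fold, adjusted p = 3.04e-06). Gpi1, the glucose phosphate isomerase that joins the branch to glycolysis, rose by 1.58 (SE 0.11, adjusted p = 5.37e-06) and the transketolase Tkt by 0.96 (SE 0.10, adjusted p = 2.43e-04). For G6pdx, the first enzyme of the branch, the difference of 0.51 (SE 0.12) gave an adjusted p of 0.0512. In glycolysis Pklr, liver pyruvate kinase, was −1.57, −1.31, −1.75 and −1.73 at 5 g/kg, against 0.66, 0.10 and 0.08 at 7 g/kg (difference 1.87, SE 0.20, 3.65-fold, adjusted p = 2.69e-04). Pfkfb3, which sets the level of a glycolytic activator, rose by 0.93 (SE 0.12). The gene for ChREBP, Mlxipl, rose from between −0.40 and −0.28 to 0.64, 0.14 and 0.54 (difference 0.79, SE 0.13, adjusted p = 0.00634). None of these 6 called genes differed from control at 5 g/kg by the limma test. Khk did, and it rose by 0.77 from control and by a further 1.21 (SE 0.13, 3 values at 5 g/kg, adjusted p = 4.92e-04).

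In fatty acid synthesis Thrsp and Fasn rose at each step. Thrsp, the Spot 14 protein that follows lipogenic activity, was −4.37, −2.23 and −3.79 in controls, −1.49, −1.21, −2.28 and −1.15 at 5 g/kg, against 1.88, 1.31 and 0.57 at 7 g/kg. The 7 g/kg arrays lay above all others, and the highest control lay just above the lowest 5 g/kg array. The dose difference was 2.78 (SE 0.42, 6.89-fold, adjusted p = 0.00335). Fasn, fatty acid synthase, was −0.42, −1.04 and −1.08 on the 3 arrays with a value at 5 g/kg, against 1.55, 0.09 and 0.81 at 7 g/kg (difference 1.67, SE 0.30, adjusted p = 0.0141).

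The suppliers of NADPH and of acetyl units rose at the second step. Me1, malic enzyme, was between −0.91 and −0.59 at 5 g/kg, against 0.93, 0.61 and 0.77 at 7 g/kg (2.83-fold higher, SE 0.12 on the log2 scale, adjusted p = 1.95e-05). Acss2, which turns acetate into acetyl-CoA in the cytosol, was −0.74, −0.52, −0.74 and −0.65 at 5 g/kg, against 0.70, 0.55 and 0.66 at 7 g/kg (difference 1.30, SE 0.11, adjusted p = 4.22e-05), and it was the member of the ethanol, acetaldehyde and acetate list that rose. The citrate carrier Slc25a1 differed by 0.78 (SE 0.10) and the elongase Elovl5 by 0.80 (SE 0.18, called in 4 of the 10 fits without 1 array). Acaca, acetyl-CoA carboxylase, had a difference of 0.46 (SE 0.11) and an adjusted p of 0.056. The 3 other Acaca probes were called higher when every probe was fitted on its own, by 0.60, 0.71 and 1.21. The bright spots of Acly, Scd1 and Elovl6 were usable only with outlier-marked spots kept. In that fit the ATP citrate lyase gene Acly was −1.37 to −1.08 at 5 g/kg, against 1.11, 0.74 and 0.86 at 7 g/kg (difference 2.16, SE 0.12, adjusted p = 1.59e-07). The desaturase gene Scd1 differed by 2.07 (SE 0.27, adjusted p = 0.00109) and the elongase gene Elovl6 by 0.87 (SE 0.11, adjusted p = 7.2e-04), the latter after a rise of 0.60 from control at 5 g/kg (adjusted p = 0.00626). Srebf1, the gene of the SREBP-1 factors, ran from −1.01 to −0.17 at 5 g/kg and from −0.65 to 0.74 at 7 g/kg, and these overlapping groups gave a difference of 0.51 (95% interval −0.17 to 1.19, adjusted p = 0.642).

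Of 19 cholesterol synthesis genes tested 5 were higher at 7 g/kg and none lower, with a median of 0.22. Fdps, which makes farnesyl diphosphate, was −0.32, −0.62, −0.57 and −0.62 at 5 g/kg, against 0.66, 0.96 and 0.70 at 7 g/kg (difference 1.30, SE 0.29, adjusted p = 0.0341), although 1 control at −2.07 lay far below the other two at −0.36 and −0.59. Fdps had an adjusted p of 0.0939 with slide as a fixed block. Nsdhl (0.97), Dhcr7 (0.93), Pmvk (0.73) and Tm7sf2 (0.55, 3 values at 5 g/kg) made up the rest. When 1 array was left out, 2 to 5 members were higher and up to 3 were lower, the latter without control array 1. No member passed the limma test with the liver channel alone (median 0.27) or with the scanner's log ratio (median 0.18). The list's mean level overlapped between the doses, from −0.36 to −0.09 at 5 g/kg and from −0.10 to 0.08 at 7 g/kg. Of 17 sterol sensing and transport genes, 16 gluconeogenic genes and 14 triglyceride synthesis genes none was called between the doses in the limma fit, against 1.56% of all genes. Igfbp1, in the gluconeogenic list, was higher at 7 g/kg by 0.95 to 1.64 over 29 alternative fits and passed in 4 of them.

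**Figure D3:**
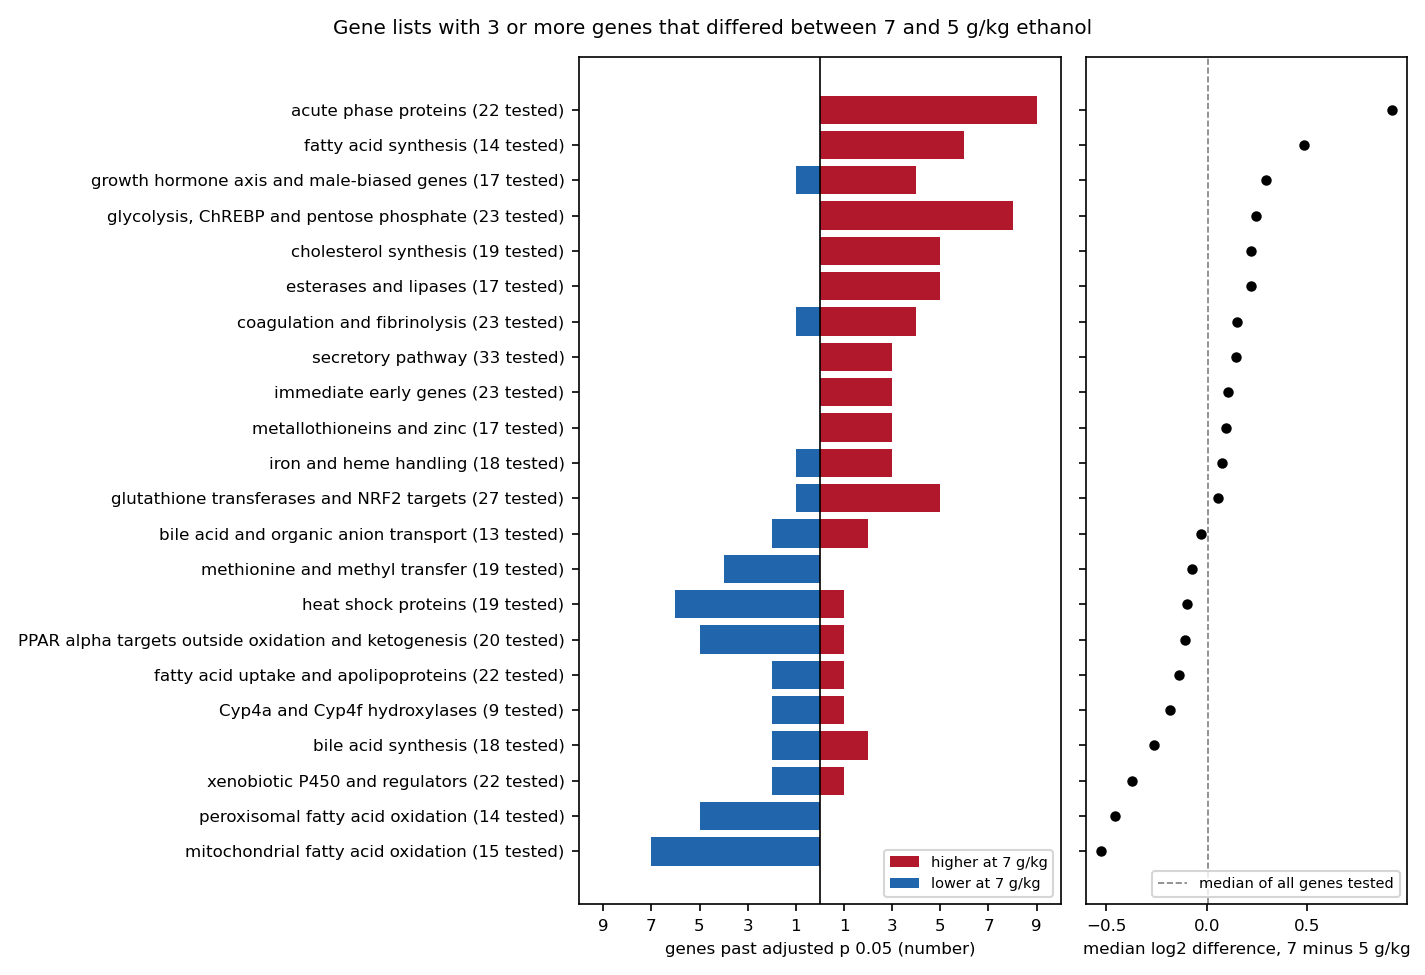
The left panel counts, for each of the 22 pathway lists with 3 or more called genes, those higher (red) and lower (blue) at 7 than at 5 g/kg, and the right panel gives the list's median log2 difference with the median of all genes as a dashed line. Acute phase and fatty acid synthesis genes lie farthest to the right, at 0.92 and 0.48, and the 2 fatty acid oxidation lists farthest to the left.

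Acute phase genes formed the other large rise, and the 5 g/kg arrays were spread widely on them. Of 22 tested 9 were higher at 7 g/kg and none lower, with a median of 0.92. Saa1, a serum amyloid A apolipoprotein whose promoter is printed above, was −4.00, −4.34 and −3.58 in controls, −1.46, −2.51, 1.25 and −3.85 at 5 g/kg, against 1.57, 2.45 and 2.81 at 7 g/kg. The fourth 5 g/kg array lay at control level and the third just under the 7 g/kg arrays. The difference was 3.92 (SE 0.79, 15.1-fold, adjusted p = 0.0211), with a within-slide range of 1.20 to 6.66. Saa2 differed by 3.82 (SE 0.72, adjusted p = 0.0156) and Saa3 by 3.84 (SE 0.78, adjusted p = 0.022), with the same order of arrays. Saa1 and Saa2 probes may share signal, as their sequences are alike. With the liver channel alone the difference was 1.79 for Saa1 and 2.27 for Saa3. Saa4, measured only with outlier-marked spots kept, had risen by 1.13 at 5 g/kg (adjusted p = 0.002) and differed between the doses by −0.13 (adjusted p = 0.866).

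The spread showed in the whole list. Its mean level was −1.41 to −1.56 in controls, −0.23, −0.57, 0.46 and −1.18 at 5 g/kg, against 0.51, 0.86 and 1.00 at 7 g/kg. The counts followed single arrays: 1 member passed without 7 g/kg array 2 or 3 or without 5 g/kg array 2, 3 without 5 g/kg array 1, 7 without 7 g/kg array 1, 8 without 5 g/kg array 4 and 13 without 5 g/kg array 3. The median difference over those fits stayed between 0.77 and 1.12. With the liver channel alone the median was 0.59 and no member passed the limma test, and with the scanner's own log ratio it was 0.84 with none passing.

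Among the other secreted proteins, Orm1, an acid glycoprotein, rose at both steps, being −1.98 to −1.62 in controls, −0.34, −1.08, 0.38 and −1.18 at 5 g/kg, against 0.79, 1.21 and 1.09 at 7 g/kg (difference 1.59, SE 0.28, adjusted p = 0.01). The fibrinogen chain genes Fga, Fgb and Fgg also rose at both steps, by 0.83, 1.43 and 1.18 between the doses (SE 0.16 to 0.32, Fga with 3 values at 5 g/kg). Hpx, the heme scavenger, and Apcs, the pentraxin serum amyloid P, rose by 1.00 and 1.20 with no call at 5 g/kg. Orm2 (1.60, SE 0.39, adjusted p = 0.0599), Orm3 (1.27, adjusted p = 0.0626), Serpina3n (1.09, adjusted p = 0.0732) and Lrg1 (0.84, adjusted p = 0.105) missed the threshold. Orm2, Orm3 and Lrg1 passed with slide as a fixed block (adjusted p = 0.0173, 0.022 and 0.0334). Hp, haptoglobin, was 1.86 above control at 5 g/kg and differed between the doses by 0.16 (95% interval −0.34 to 0.66). Hamp, the iron hormone hepcidin, differed by 0.20 (adjusted p = 0.9) with overlapping groups.

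Inflammatory mediators were fewer. Lcn2, the siderophore-binding lipocalin, was −4.53 to −4.17 in controls, −0.49, −1.24, −0.09 and −2.78 at 5 g/kg, against 0.42, 1.67 and 0.72 at 7 g/kg (difference 2.09, SE 0.47, adjusted p = 0.0376), and it passed in 3 of the 10 fits without 1 array. Cxcl1, a neutrophil-attracting chemokine, was −0.93, −0.59, 0.08 and −1.56 at 5 g/kg, against 1.25, 1.28 and 0.85 at 7 g/kg (difference 1.88, SE 0.30, 3.68-fold, adjusted p = 0.00457) and passed in all 10. Ccl9 had risen at 5 g/kg by 0.61 and fell back by 0.63 (SE 0.13). Of 23 immediate early genes 3 were higher. Egr1, an immediate early transcription factor, was 0.50, 1.68 and 0.16 at 7 g/kg against −1.54 to −0.45 at 5 g/kg (difference 1.96, SE 0.32, adjusted p = 0.00591). Ier2 differed by 0.68, but a second probe gave −0.18 (adjusted p = 0.739). Junb differed by 0.96, but a brighter probe, measured only with outlier-marked spots kept, gave −0.01. Socs3 (0.66, adjusted p = 0.316) and Il1b (−0.02, adjusted p = 0.972) were not called.

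Markers of leukocytes were read beside these genes. Of 10 neutrophil markers 1 was called, S100a8, at −0.43, −0.54, 0.28 and −0.58 at 5 g/kg, against 0.66, 0.56 and 0.49 at 7 g/kg (difference 0.88, SE 0.17, adjusted p = 0.0169). S100a9 gave 0.89 with an adjusted p of 0.0605. The mean of the 10 ranged from −0.16 to −0.13 in controls, from −0.24 to 0.25 at 5 g/kg and from 0.13 to 0.25 at 7 g/kg, with 5 g/kg array 3 again the highest of its group, and its part in the rise of the acute phase genes was not tested. None of 11 Kupffer cell, 10 lymphocyte, 12 sinusoidal endothelial, 12 stellate cell or 16 interferon response genes was called in the limma fit. The medians lay between −0.09 and 0.05. As 1.56% of all genes were called, such short lists can easily hold none.

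**Figure D4:**
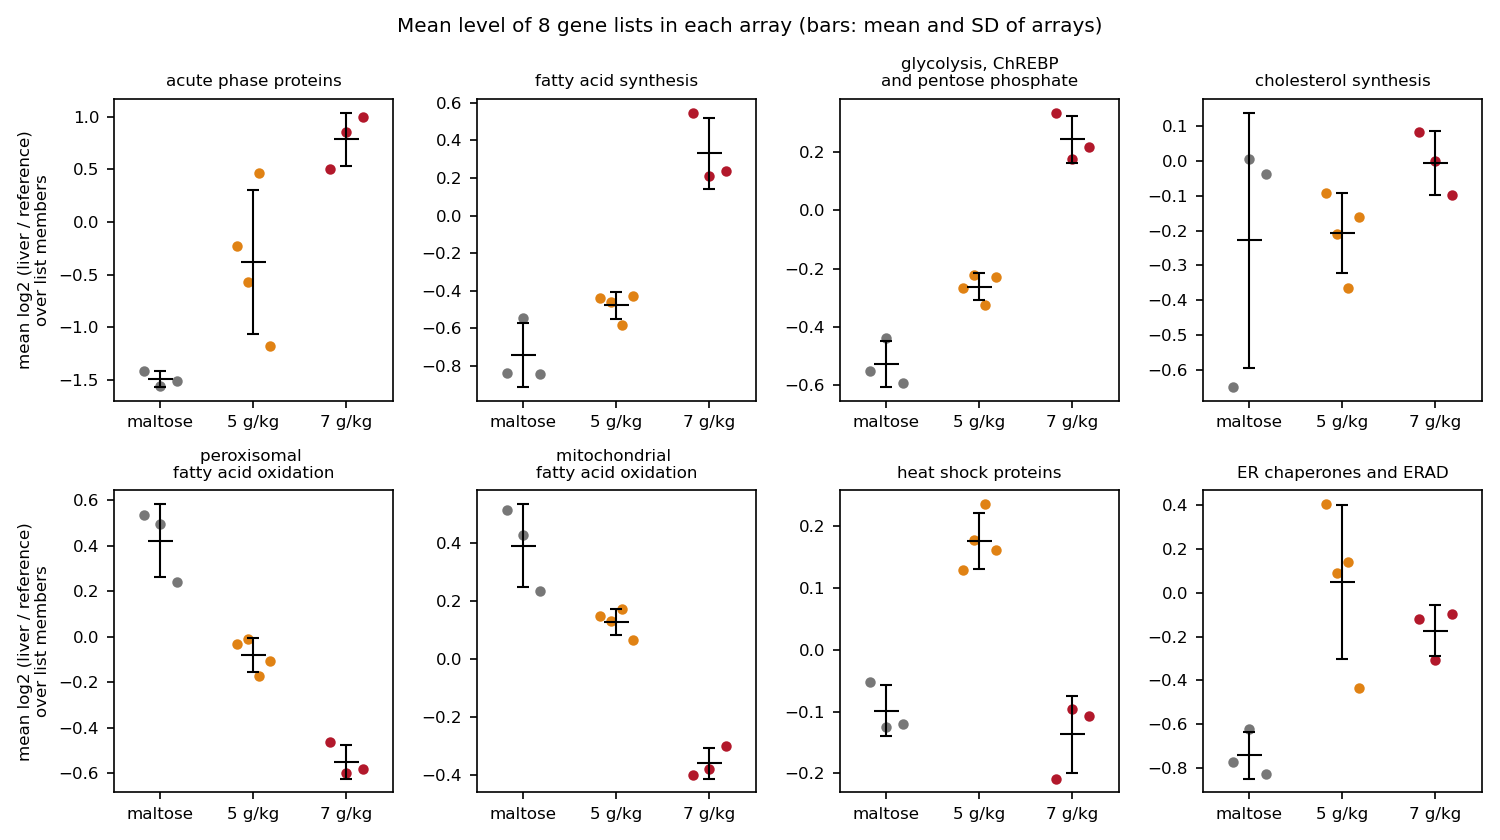
Points give the mean log2 ratio over the tested members of 8 gene lists in each array, with the mean and SD of the arrays. Acute phase genes at 5 g/kg range from −1.18 to 0.46, just under the 7 g/kg arrays at 0.51 to 1.00. Fatty acid synthesis and oxidation genes also separate the doses, with a narrower spread at 5 g/kg. Such separation was also found in lists with few or no calls.

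Hspb1, Hsp90aa1 and Hsp90ab1, all cytosolic chaperones, were raised at 5 g/kg and lower at 7 g/kg. Of 19 heat shock genes tested 6 were lower at 7 g/kg and 1 higher, with a median of −0.10, and with the liver channel alone 1 was lower. Hspb1, the small heat shock protein whose promoter is shown above, was −0.74, −0.71 and −0.84 in controls, 0.57, 0.41, 0.85 and 0.62 at 5 g/kg, against −0.99, −0.75 and −0.71 at 7 g/kg. The 7 g/kg arrays overlapped the controls, and the 5 g/kg arrays stood apart from both. The dose difference was −1.43 (SE 0.12, adjusted p = 2.52e-05), after a rise from control of 1.38 at 5 g/kg, and 7 g/kg differed from control by −0.05 (adjusted p = 0.89). Hsp90aa1, the inducible HSP90, was 0.58, 0.80 and 0.59 on the 3 arrays with a value at 5 g/kg, against −0.38, −0.56 and −0.37 at 7 g/kg (difference −1.09, SE 0.13, adjusted p = 8.82e-04). Its controls were −0.57, −1.05 and −0.79, all below the 7 g/kg arrays, by 0.37 between the means (adjusted p = 0.11). Hsp90ab1, its constitutive partner, lost a smaller rise (0.42 from control, then −0.75, SE 0.09), and its 7 g/kg arrays lay below all controls (−0.33 from control, adjusted p = 0.0571).

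For Hsph1, the HSP110 exchange factor, the 7 g/kg arrays went below the controls, with −0.09, 0.45, 0.68 and 0.29 at 5 g/kg, −1.51, −1.27 and −0.77 at 7 g/kg and −0.44 to −0.15 in controls (difference −1.52, SE 0.18, adjusted p = 6.34e-04). The mitochondrial chaperonin genes Hspd1 and Hspe1 differed by −0.42 and −0.54 and had no call at 5 g/kg. They were called in 0 and 3 of the 10 fits without 1 array. Hspa8, the constitutive HSC70, ran the opposite way. It was −1.04 and −0.85 on the 2 arrays with a value at 5 g/kg, against −0.08, −0.25 and 0.01 at 7 g/kg (difference 0.84, SE 0.16, adjusted p = 0.0211), with controls at 0.57, 0.06 and 0.49.

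ER chaperones had risen broadly at 5 g/kg, where 10 of 21 tested were higher than control, and the dose step called 1 lower and 1 higher with a median of −0.23. Creld2, an ER stress-induced protein whose promoter is printed above, was −2.11, −2.06 and −2.35 in controls, 0.84, 0.10 and 0.12 on the 3 arrays with a value at 5 g/kg, against −0.70, −1.53 and −0.68 at 7 g/kg. It stayed above control at 7 g/kg by 1.20 (adjusted p = 0.00471) but lay below those 3 arrays (difference −1.33, SE 0.23, adjusted p = 0.0103). The call rests on the dropped spot of the fourth 5 g/kg array. With outlier-marked spots kept the difference was −0.91 (adjusted p = 0.34), and with the deposited series table also −0.91 (adjusted p = 0.553). Hsp90b1, the ER form of HSP90, was 1.06, 0.44, 0.46 and −0.17 at 5 g/kg, against −0.39, −0.62 and −0.13 at 7 g/kg, and this overlap by 1 array gave −0.83 (SE 0.21, adjusted p = 0.0704). Manf (−0.65, adjusted p = 0.46), Sdf2l1 (−0.68, adjusted p = 0.27), Hyou1 (−0.64, adjusted p = 0.238) and Calr (−0.51, adjusted p = 0.232) had the same sign without a call. With outlier-marked spots kept, Hspa5, the BiP chaperone, was 1.02, 0.60, 0.55 and −0.52 at 5 g/kg, against −0.47, −1.09 and −0.39 at 7 g/kg (difference −1.06, SE 0.27, adjusted p = 0.0725).

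The fourth 5 g/kg array was the lowest of its group for each of these ER genes with a value there. Without it, 5 ER members were called lower and none higher, and the median was −0.29. The member called higher with all arrays, Sec61b, belongs with Sec61g and Tram1 to the channel that threads new proteins into the ER, and the 3 rose by 0.63, 0.68 and 0.69 (SE 0.11 to 0.14). Tram1 had a value on 2 of the arrays of each dose. Of 20 ATF4 and CHOP targets none was called, against 1.56% of all genes. Among them Ddit3 differed by −0.37 (adjusted p = 0.248) and Trib3 by −0.40 (adjusted p = 0.0862). Of 21 p53 targets none was called either. Cdkn1a, the p21 cell cycle inhibitor, was 2.51 above control at 5 g/kg, and its dose difference was 0.04 (95% interval −0.26 to 0.35).

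**Figure D5:**
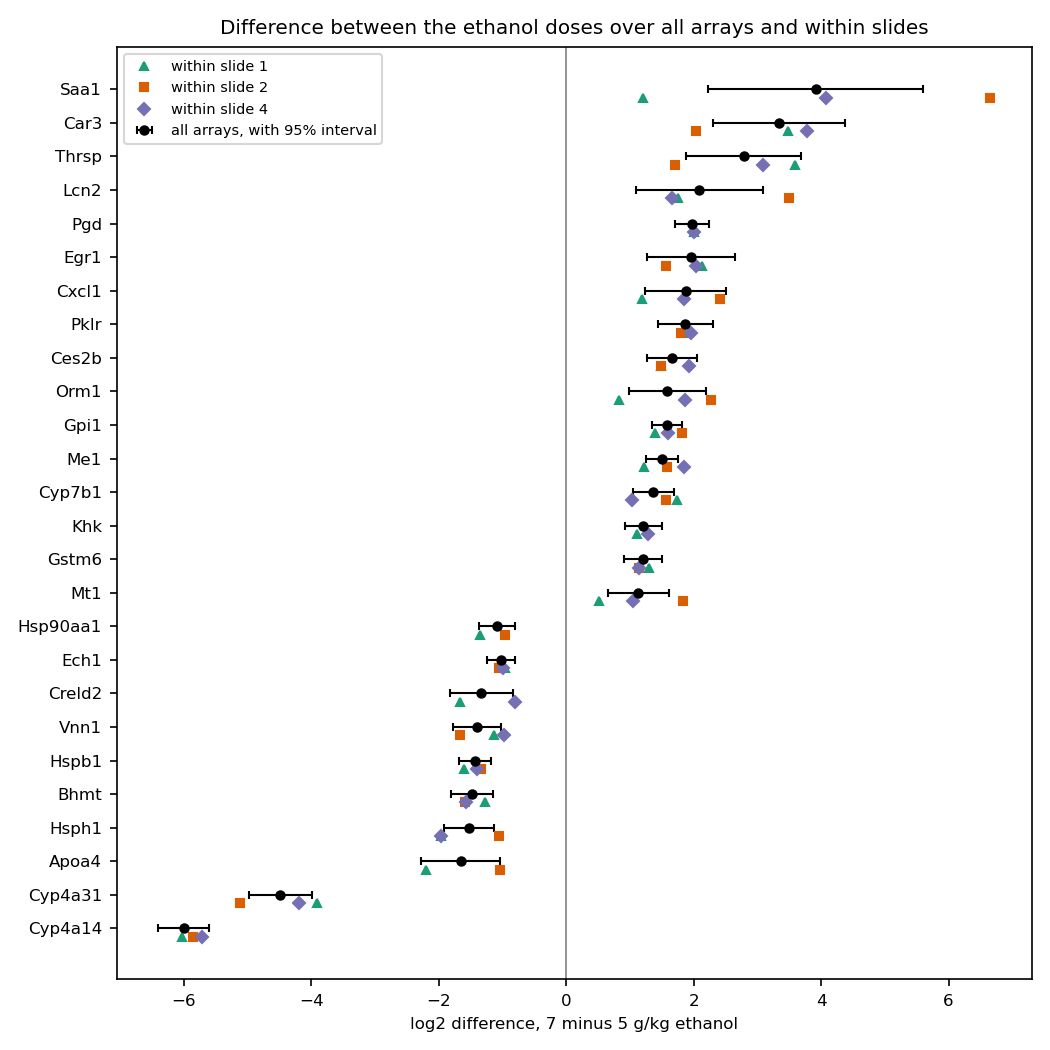
Black points with bars give the log2 difference of 7 minus 5 g/kg ethanol over all arrays with its 95% interval for 26 genes, and coloured points give the difference within each of the 3 slides that held both doses. Saa1 ranges most widely within slides, from 1.20 to 6.66. As all 26 were called without overlap of the doses, the signs within slides are fixed by that choice.

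Of 17 genes tested with a sex-biased or growth hormone dependent pattern in mouse liver, 4 were higher at 7 g/kg and 1 lower, while 10 differences were above and 7 below 0. The median was 0.29, but 0.04 with the liver channel alone and 0.06 without 5 g/kg array 2. Cyp7b1, an oxysterol hydroxylase, was −0.73, −1.06, −1.07 and −0.98 at 5 g/kg, against −0.03, 0.67 and 0.58 at 7 g/kg (difference 1.37, SE 0.15, adjusted p = 2.92e-04). Nudt7, a peroxisomal CoA hydrolase, rose by 1.62 (SE 0.25, 2 values at 7 g/kg), Selenbp2 by a further 1.08 (SE 0.13) and the complement gene C6 by 0.51 (SE 0.10). Igfbp2 fell at both steps, by 0.73 and by a further 0.99 (SE 0.19). Hsd3b5, a male-predominant steroid enzyme that was 1.90 below control at 5 g/kg, differed by 1.28 (SE 0.32, adjusted p = 0.073). Car3, an abundant carbonic anhydrase of liver, fat and muscle, had the largest rise outside the serum amyloids. It was −2.72, −0.04 and −0.83 in controls, −3.08, −2.44, −2.49 and −1.41 at 5 g/kg, against 1.34, 0.99 and 0.64 at 7 g/kg (difference 3.34, SE 0.48, 10.1-fold, adjusted p = 0.00241). The 7 g/kg arrays stood above all others. None of 8 adipocyte markers was called in the limma fit, against 1.56% of all genes. Their mean level ranged from −0.11 to 0.01 at 5 g/kg and from −0.09 to 0.16 at 7 g/kg, and the ranges overlapped.

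Conjugating enzymes and esterases included several risers. Of 27 glutathione transferase and NRF2 target genes 5 were higher and 1 lower, against 2 and 0 with the liver channel alone. The mu-class genes Gstm6 (1.21, SE 0.14), Gstm3 (1.09, SE 0.14), Gstm1 (0.82, SE 0.10) and Gstm2 (0.63, SE 0.12) rose together, and their probes may share signal. Gstm3 was −0.57, −0.56, −0.25 and −0.50 at 5 g/kg, between the controls, with a mean of -1.19 ± 0.20 (SD, n = 3), and the 7 g/kg arrays at 0.47, 0.93 and 0.46. Gstt2 fell at both steps (−0.90 between the doses, SE 0.13). Hmox1, heme oxygenase, rose by 0.65, and Alas1, the first enzyme of heme synthesis, fell by 0.96 (SE 0.20, adjusted p = 0.0285). Of 17 esterase and lipase genes 5 were higher and none lower, and with the liver channel alone 1 was higher. Ces2b, a carboxylesterase, was −0.68, −0.87, −0.49 and −0.36 at 5 g/kg, against 1.05, 1.00 and 1.13 at 7 g/kg (difference 1.66, SE 0.18, adjusted p = 3.18e-04), and Ces2e, Ces2c, Ces1e and Aadac differed by 0.44 to 0.85.

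Among metal genes, Mt1, a metallothionein, was −2.36 to −1.45 in controls, 0.93, 0.95, 1.45 and 0.42 at 5 g/kg, against 1.99, 1.97 and 2.25 at 7 g/kg (difference 1.13, SE 0.22, adjusted p = 0.0185). It passed in 5 of the 10 fits without 1 array, had an adjusted p of 0.0586 with slide as a fixed block, and differed by 0.30 with the liver channel alone. Mt2 gave 0.94 with an adjusted p of 0.0711. The zinc importer Slc39a14 rose at both steps (0.95 between the doses, SE 0.20), as did the manganese exporter Slc30a10 (0.95, SE 0.15).

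Bile acid and cytochrome P450 genes moved in both directions. Of 18 bile acid synthesis genes 2 were higher and 2 lower. Cyp2c70, which makes muricholic acids, was −3.82 to −3.00 in controls, −0.31, −0.58 and −1.39 on the 3 arrays with a value at 5 g/kg, against 0.35, 1.06 and 0.80 at 7 g/kg (difference 1.49, SE 0.27, adjusted p = 0.012). Cyp39a1, an oxysterol hydroxylase, had risen by 1.49 at 5 g/kg and fell back by 1.18 (SE 0.25). Cyp7a1, the first and limiting step of the classical bile acid route, was −0.02, −0.15, −1.47 and 0.35 at 5 g/kg, against −2.08, −2.32 and −0.99 at 7 g/kg, overlapping by 1 array (difference −1.47, SE 0.36, adjusted p = 0.0599). With slide as a fixed block its adjusted p was 0.00324. Slc10a2, the ileal-type bile acid importer, rose at both steps (1.38 between the doses, SE 0.22, 2 values at 7 g/kg), and the phospholipid exporter Abcb4 fell at both (−0.56, SE 0.11). Slc22a7, an organic anion carrier, rose by 1.21 (SE 0.19) while of 2 other carriers of this kind Slco1a4 fell by 1.30 (SE 0.30) and Slco2b1 rose by 0.52 (SE 0.11). Nr1i3, the receptor CAR that induces Cyp2b genes, fell by 0.80 (SE 0.16, 3 values at 5 g/kg, adjusted p = 0.0213), and Por, the shared P450 reductase, by 0.52. Cyp2b10 and Cyp2b13 stayed 3.56 and 4.00 above control at 7 g/kg, with dose differences of −0.96 and −0.75 that were not called (adjusted p = 0.165 and 0.219, with 2 and 3 values at 5 g/kg). With slide as a fixed block both passed (adjusted p = 0.0197 and 0.0414), but a second Cyp2b13 probe gave 0.07. Cyp1a2 rose by 1.03 (SE 0.19, 2 values at 5 g/kg).

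Ethanol-oxidising enzymes showed no call between the doses. Adh1 differed by 0.24 (95% interval 0.02 to 0.47, adjusted p = 0.406), Adh4 by 0.12 (adjusted p = 0.816) and Cyp2e1 by −0.41 (95% interval −0.70 to −0.12, adjusted p = 0.213). Both Adh genes had fallen from control at 5 g/kg, by 0.63 and 1.51.

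Some enzymes of methyl group and amino acid metabolism fell. Of 19 methionine and methyl transfer genes 4 were lower and none higher, while 9 differences were above and 10 below 0 with a median of −0.07. None of the 19 passed the limma test with the liver channel alone. Bhmt, which remethylates homocysteine with betaine, was 0.87, 0.11 and 0.62 in controls, 1.47, 1.56, 1.26 and 1.68 at 5 g/kg, against −0.02, −0.02 and 0.09 at 7 g/kg. The rise at 5 g/kg was lost (difference −1.47, SE 0.15, adjusted p = 2.04e-04), and 7 g/kg differed from control by −0.51 (adjusted p = 0.0719). The dose difference of Bhmt was −0.53 with the liver channel alone. Ahcy, which splits S-adenosylhomocysteine, fell by 1.12 (SE 0.15, 3 values at 5 g/kg), Mat1a, the S-adenosylmethionine synthetase of adult liver, by 0.74 (SE 0.15) and Dmgdh by 0.59 (SE 0.10, 3 values at 5 g/kg). Gldc, of glycine cleavage, and Sult1a1, a phenol sulfotransferase, also lost a rise, with 95% intervals of the difference of -1.29 to -0.70 and -1.15 to -0.43. Oat and Hpd, of ornithine and tyrosine breakdown, fell by 0.92 and 0.85, Oat with 3 values at 5 g/kg. Among lost falls, Akr1c6, Nat8f1 and Paox returned by 0.90, 0.84 and 0.56 (SE 0.11 to 0.16), and the 7 g/kg arrays of Akr1c6, a hydroxysteroid dehydrogenase, lay within its control range.

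Other gene groups showed no call at this dose step in the limma fit, against 1.56% of all genes. They were the clock genes (21 tested, with Dbp at −0.04 after a fall of 1.94 at 5 g/kg), cell death genes (28), respiratory chain (28), proteasome (31), ribosomal proteins (24), ribosome biogenesis (19) and cytoskeleton (20). Lists of this size can easily hold no called gene at that share. Of the 69 genes named whatever their result, 58 were tested, of which 14 were higher, 6 lower and 38 not called. Of the other 11, 10 were measured only with outlier-marked spots kept, where 3 were higher and 2 lower.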

How the data were processed

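Cy5 liver RNA and a Cy3 common reference were measured on 10 two-colour Agilent mouse arrays of 45018 spots. For the reference channel, too, the tissue label reads liver. The deposited median intensity and local background intensity of each spot were made with Agilent Feature Extraction 11.5.1.1, as was the deposited log10 ratio (Cy5 over Cy3), per the file headers. Values of the deposited series table were read as log2 ratios from their range, and the step behind them is not given in the sources used here. The deposited flags on outlier and background status (other columns) were used as filters.

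In R 4.3.3 with limma 3.58.1, intensities were corrected by normexp (offset 50) and normalized by loess within each array, and spots of a probe were averaged. Control spots and outlier-marked spots (2.42% to 5.83% per array) were left out. Saturation was not flagged on any array. A symbol was found for 24375 of 41174 probes through RefSeq accessions of GRCm38.p6. Probes well above background on fewer than 3 arrays, and genes with fewer than 2 values in a group, were left out. The probe with the highest mean signal stood for its gene, which gave 26122 genes, 15109 with a symbol, and 1.42% of values were missing. A fit drops missing values. All 10 arrays entered 1 fit of group means (7 residual and 7.32 prior degrees of freedom, median SE 0.12). The number of arrays limits the precision. Only the fit was tested on simulated data, which were log ratios with independent normal noise. The background, normalization and filter steps were not tested. In that test 22 of 50 genes with a true log2 difference of 0.5 were found. Of those with a difference of 1, 49 of 50 were found, and all at 2 and 4. The test also called 10 unchanged genes.

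The comparison, its gene lists (60, of which 12 are cell type markers, with 973 distinct genes tested) and the named genes were chosen with earlier results of these data known. The rule for named genes took the 15 highest and 15 lowest differences among called genes without overlap, up to 4 genes of each list by p, up to 8 of each response class, and 69 genes whatever their result. Of the genes whose values are given, 39 tested ones lie outside it and were chosen after their values were seen, among them Khk, Fgg, Hpx, Apcs, Hspe1 and Fkbp4. A few genes that the rule names are not reported here. Alternatives changed the background, normalization, channel, value source, filters, probe choice, slide term, replicate block, moderation and threshold, or omitted a single array.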

Additional observations from a re-analysis of the deposited data

Results flagged for a closer look

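In the 4 arrays at 5 g/kg, the highest or lowest array was set apart from the rest by a gap above Dixon's critical share of the range in 8 of 209 searches over named genes, list means and principal components. Chance gives about 1 in 20. Array 1 stood high for Abhd2 (0.341, others −0.03 to 0.00), Fdps (−0.316, others −0.62 to −0.57) and Gstm2 (−0.109, others −0.39 to −0.34). Array 3 stood low for Hsd3b5 (−2.03, others −1.47 to −1.37), Akr1c6 (−1.02, others −0.81 to −0.79) and the mean of the Cyp4a and Cyp4f genes (0.0326, others 0.20 to 0.21). Array 4 stood low for Adh1 (−0.428, others −0.29 to −0.28) and C6 (−0.271, others −0.11 to −0.11). All values are log2 ratios of liver over reference, and their causes were not tested. The spread of the acute phase genes over the 5 g/kg arrays did not reach that limit.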

How the results depend on the processing

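The 408 calls between the doses became 254 with a normexp offset of 10, 116 with the scanner's processed log ratio, 130 with the deposited series table, 46 with the liver channel alone, 139 at an adjusted p under 0.01 and 19 against a log2 margin of 0.5. Leaving out 1 array gave 210 to 418. The other alternatives gave 283 to 547 calls, the highest with every probe on its own. Classes taken from the sign of 5 g/kg minus control, without its test, held 125 further rises, 137 further falls, 94 lost rises and 52 lost falls. Median centring gave 19 further falls and 113 genes lower at 7 g/kg without a call at 5 g/kg. Replicate numbers did not pair the arrays (r of −0.21 to 0.18 over 3 ethanol pairs), and a replicate block gave 283 calls, 256 of them among the 408.

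For the 130 called genes named here, 2819 of 3765 values under alternatives kept direction and call, 944 kept direction without a call and 2 reversed. The reversals came with outlier-marked spots kept, Junb to −0.0064 and Akr1c19 to 0.69, where another probe stood for the gene. Among genes not called, differences near 0 changed sign. With a replicate block Plin2 was −0.013 and Hamp −0.13. With the liver channel alone Il1b was 0.030 and Atf3 0.096, and Atf3 was 0.0076 with the scanner ratio and with the series table. Without 1 array the differences ran from −0.095 to 0.32 for Plin2, −0.0028 to 0.36 for Hp, −0.13 to 0.43 for Hamp, −0.050 to 0.0041 for Il1b, −0.41 to 0.22 for Atf3, −0.069 to 0.16 for Cdkn1a and −0.13 to 0.039 for Dbp. Apart from the probe change, the causes were not tested. List counts by alternative were added after seeing the data. The liver channel alone moved the median of 18 of 60 lists by more than the spread between arrays, and median centring that of 3. Dim spots limit small differences, since 67.3% to 86.2% of spots per array were well above background.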

Other observations

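A few called genes known to work with the HSP90 or HSP70 chaperones are given here, chosen after their values were seen. Fkbp4, an immunophilin of steroid receptor complexes, was 0.19, 0.10, 0.17 and 0.16 at 5 g/kg, against −0.73, −0.84 and −0.76 at 7 g/kg (difference −0.93, SE 0.09, limma adjusted p = 9.86e-05). Ahsa1, which activates the HSP90 ATPase, differed by −0.50 (SE 0.11, adjusted p = 0.0324), St13, the HSP70-interacting protein, by −0.49 (SE 0.11, adjusted p = 0.0403) and Cacybp by −0.45 (SE 0.10, adjusted p = 0.0445). None of the 4 differed from control at 5 g/kg by the same test. Fkbp4 passed in all 10 fits without 1 array, and the other three in 5, 3 and 1.

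Receptor and mitochondrial genes picked in the same way showed rises and a fall. Lifr, the leukemia inhibitory factor receptor, was −0.36, −0.43, −0.52 and −0.37 at 5 g/kg, against 0.12, 0.90 and 0.70 at 7 g/kg (difference 0.99, SE 0.15, adjusted p = 0.00417). Its 3 other probes gave 0.06, −0.04 and 0.11 and were not called, so the rise rests on 1 probe. Tgfbr2 differed by 0.90, with a second probe at 0.39 that was not called, and Egfr by 0.74, the latter with a value on 2 of the 7 g/kg arrays. Other Egfr probes gave 0.42, 1.43 and 1.25 when every probe was fitted on its own, and of these only that at 1.43 was called. Among pyruvate dehydrogenase genes Dlat rose by 0.58 (SE 0.09), with a second probe at 0.16 that was not called, and Pdhb by 0.96 (SE 0.17, 2 values at each dose), while Idh2, mitochondrial isocitrate dehydrogenase, fell by 0.62 (SE 0.10, adjusted p = 0.00424). Slc16a7, a monocarboxylate carrier, fell by 1.24 (SE 0.11, 3 values at 5 g/kg), and Cldn14, a tight junction protein, rose at both steps (1.58 between the doses, SE 0.21). Mrap, a melanocortin receptor accessory protein, rose by 1.51 (SE 0.23). F11, a clotting factor, rose by 0.92 (SE 0.18) and Serpind1, an inhibitor of thrombin, fell by 0.50 (SE 0.10). Tk1, thymidine kinase, fell at both steps (−0.61 between the doses, SE 0.14). Akr1c19 fell by 1.04 between the doses (SE 0.11), but a brighter probe gave 0.69 with outlier-marked spots kept.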
